A study of Xenopus laevis with 3 samples.

Results

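The extracellular matrix genes described here are collagens, laminins, nidogens, matrix glycoproteins, proteoglycans and the enzymes that modify collagen. A probe set was a member when its only gene symbol in the platform annotation belonged to one of these families, after the copy suffix had been removed, and the rule reads names, not values, although it was chosen with earlier results of these data known. This gave 61 of the 32475 frog probe sets on the array, which represent 33 of the 9244 genes with a single symbol. The 8 genes col1a1, col1a2, col2a1, col9a1, col9a2, col9a3, matn1 and matn4, which are genes of bone and cartilage though not all limited to them, were left out by the rule. A gene is given by its probe set with the highest mean, and its other probe sets are described with it.

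Inner ear RNA came from Xenopus laevis larvae of stages 56 to 58, which were 38 to 44 days old after fertilization and came from a commercial supplier. The labels name no strain, allele or treatment, and all samples form 1 group. Each of the 3 Affymetrix GeneChip arrays carried 1 pool of inner ears, from 10, 7 and 8 animals for replicates 1, 2 and 3 as the sample labels state, so animals and ear compartments were not resolved. For replicate 2 the label's number lies below the range of animals per sample in the methods text. No other tissue or stage was available to set them against. Values are GCRMA values, which are log2 intensities corrected for background, normalized over the arrays and summarised for each probe set. Expression was called against a value of 4, the threshold used in the study's methods. Probe sets differ in how well they hybridize, so a value reports on its own probe set and the values of different genes or copies give no order of transcript amounts.

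The matrix of the ear fills several sites. Fibrillar collagens with small leucine-rich proteoglycans form the connective tissue around the membranous labyrinth, basement membranes of type IV collagen, laminin and nidogen underlie its epithelia, and proteoglycans bound to hyaluronan through link proteins fill cartilage and loose mesenchyme. Collagen chains are hydroxylated and folded in the endoplasmic reticulum, then cross-linked outside the cell by lysyl oxidases. The allotetraploid genome of X. laevis holds many genes as a long copy (.L) and a short copy (.S), named after their chromosomes.

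The arrays agreed closely, with Pearson's r between pairs of arrays over all frog probe sets of 0.994 to 0.996. Cell type markers were also counted. Of all genes with a single symbol, 78.6% were called above 4 by their highest probe set. Beside that share, counts from these short marker lists cannot check the tissue label. All 7 measured genes of 12 listed for ear epithelium and hair cells were called, among them otoa and sox2. The 7 also include otos (15.02), and whether it comes from epithelium was not tested. Of this list atoh1, pou4f3, gfi1, otof and ocm had no value. Both measured genes of 4 listed for periotic mesenchyme, pou3f4 and foxc1, were called, and so were the 5 measured of 6 listed for cartilage. Of the genes listed for other tissues, 6 of 6 measured muscle genes, 4 of 6 red cell genes, 5 of 5 neuronal genes and 3 of 4 bone genes were called. The bone genes called were col1a1, col1a2 and bglap. The osteoblast factor sp7 had 1.81, in the floor of the arrays, where the lowest mean of a frog probe set was 1.62. Fibrillar collagens are found in bone and in other connective tissue, and the source of col1a1 and col1a2 was not tested. Of the measured genes 3 of 3 Schwann cell, 3 of 3 endothelial, 2 of 2 pigment cell and 2 of 4 leukocyte genes were called, with the pan-leukocyte gene ptprc at the floor. The values of some marker lists differed between the pools, and the cause was not tested. With each array set against the mean of the other arrays, the median over muscle genes whose mean reached 4 was 0.69 for replicate 1, 0.91 for replicate 2 and -1.51 for replicate 3 on the log2 scale, and over red cell genes it was -0.73, -0.43 and 1.25. Over neuronal genes it was 0.18, -1.01 and 0.84, while over cartilage genes it was 0.05, 0.004 and -0.05. The red cell medians include hba1 and rhag, whose means reached 4 but which were not called.

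Most matrix genes were detected. The question was whether a member's mean lay above the threshold of 4, tested one-sided with limma and adjusted by Benjamini-Hochberg over the 32475 frog probe sets. By their highest probe set, 31 of 33 member genes (93.9%) had an adjusted p under 0.05, against 78.6% of all genes with a single symbol counted in the same way. Of the member probe sets 54 of 61 (88.5%) were called, against 71.8% of the frog probe sets with a single symbol and 63.1% of all frog probe sets, many of which have no symbol. The median GCRMA value of the member genes was 11.58, and that of all genes counted in the same way was 9.60. These are medians of probe set intensities and give no order of transcript amounts. Several probe sets, of which the highest was taken, existed for 20 of the 33 member genes and 3933 of all 9244 genes. What this adds to the median and the share of called genes was not tested. In tissue RNA, fewer cells of a type and less RNA per cell cannot be told apart. No member probe set had arrays on both sides of 4, and in 16 of the 31 called genes the arrays lay within 0.2 of each other. These counts were not made over all genes, so they do not set the members apart. Over all frog probe sets the median SD between arrays was 0.25 for means of 4 to 8 and 0.09 for means of 12 or higher. The genes not called were col8a1 and loxl3. The counts of called genes by family given below cover few genes each. They stand beside the same 78.6% of all genes, so no count marks its family as apart.

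**Figure D1:**
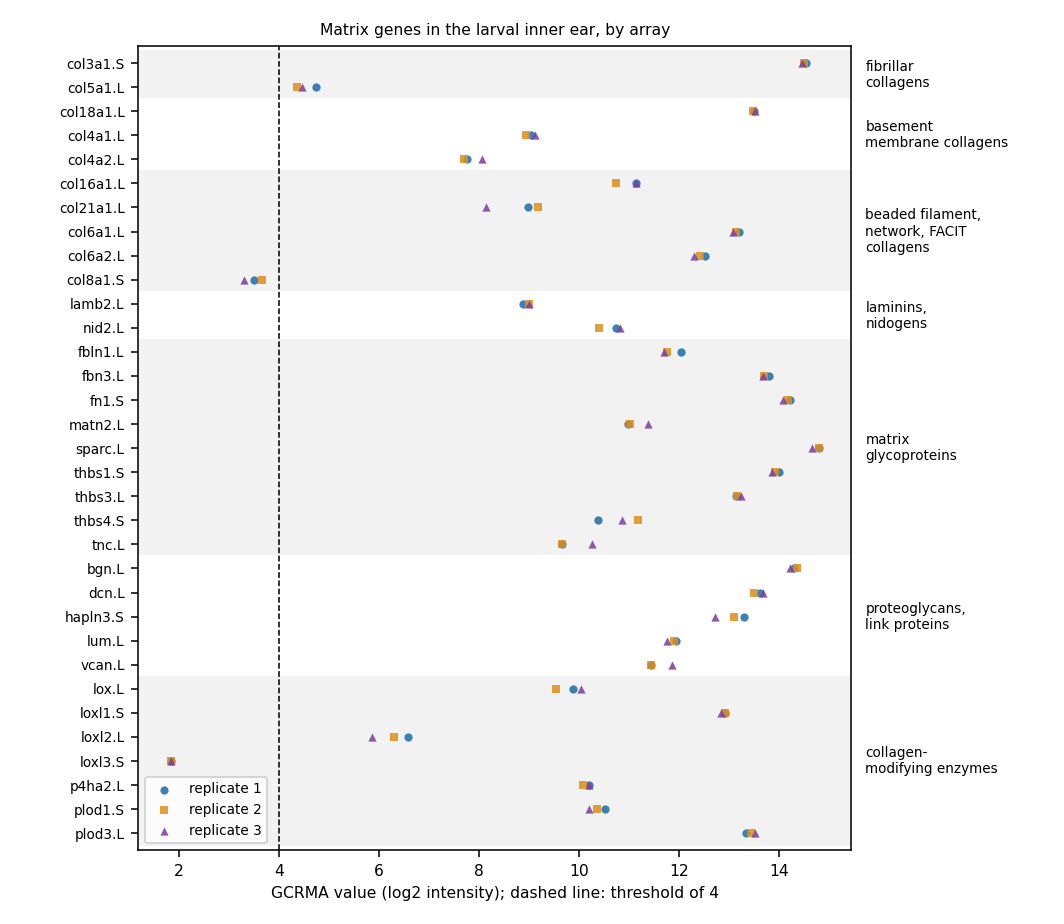
GCRMA value (log2 intensity, horizontal axis) of the probe set with the highest mean for each of the 33 matrix genes, with 1 symbol for each array and the genes grouped by family. All arrays of 31 genes lie above the dashed line at 4, and those of col8a1 and loxl3 lie below it.

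Of the fibrillar collagens outside the rule's exceptions, 2 were measured and both were called. The probe set for col3a1.S, a collagen of loose connective tissue and vessel walls, had 14.54, 14.50 and 14.46 in replicates 1, 2 and 3. These arrays were nearly equal, at a mean of 14.50 ± 0.04 (SD, n = 3). The probe set for col5a1.L, a collagen that sets the width of fibrils, had 4.75, 4.36 and 4.47. It was the called member closest to the threshold, at 4.53 ± 0.20 (SD, n = 3; limma adjusted p = 0.0132), and without replicate 1 its mean was 4.42 and the call was lost.

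The collagens of basement membranes were col4a1, col4a2 and col18a1, and all 3 were called by each of their probe sets. The genes col4a1 and col4a2 encode the chains of the common type IV network and are neighbours in the RefSeq annotation of X. laevis. The higher probe set for col4a1.L had 9.04, 8.94 and 9.13 in replicates 1, 2 and 3, and that for col4a2.L had 7.75, 7.69 and 8.06. Both were highest on replicate 3 and lowest on replicate 2. The other col4a2.L probe set shared this order with 5.95, 5.88 and 6.31, but the other col4a1.L probe set had 7.46, 7.69 and 7.47, with replicate 2 the highest. The gene col18a1 encodes the collagen from which endostatin is cut. Its .L probe set had 13.49, 13.48 and 13.52 and its .S probe set had 12.67, 12.79 and 12.59, so both copies were called with little spread.

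Of 5 measured collagens of beaded filaments, networks and fibril surfaces, 4 were called. Beaded filaments of type VI collagen surround cells of muscle, nerve and cartilage, and the genes of 2 of its chains, col6a1 and col6a2, are also neighbours in the RefSeq annotation. The probe set for col6a1.L had 13.21, 13.13 and 13.07, and the higher one for col6a2.L had 12.53, 12.41 and 12.29 in replicates 1, 2 and 3. Both had replicate 1 highest and replicate 3 lowest, and the second col6a2.L probe set shared it at 11.83, 11.81 and 11.64. The genes col16a1 and col21a1 encode FACIT collagens, which sit on the surface of fibrils. The higher col16a1.L probe set had 11.14, 10.75 and 11.14, while the other had 6.10, 5.66 and 5.39, and they differed in which array was lowest. The single col21a1.L probe set had 8.99, 9.18 and 8.15, with replicate 3 apart from the others. The network collagen col8a1, known from vessels and the cornea, was not called by either of its .S probe sets. The higher one had 3.51, 3.66 and 3.31, under 4 on every array, and the other stayed at the floor of the arrays with 1.86, 1.86 and 1.85.

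Laminins and nidogens were represented by 1 gene each. Of 12 laminin chains in the list used here only lamb2, the beta-2 chain of mature basement membranes, had a member probe set. The lamb2.L probe set had 8.88, 8.99 and 9.00, a mean of 8.96 ± 0.07 (SD, n = 3; limma adjusted p = 1e-06). Nidogen links the laminin and type IV collagen networks, and the nid2.L probe set had 10.74, 10.39 and 10.82. Replicate 2 was the low array there, and as the only nid2 probe set carries the suffix _s_at, which marks probes shared with other transcripts, its value may include other transcripts.

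All 9 measured matrix glycoproteins were called. The gene sparc encodes osteonectin, a collagen-binding protein of bone and connective tissue. Its .L probe set had 14.79, 14.79 and 14.65, a mean of 14.74 ± 0.08 (SD, n = 3), and its .S probe set had 14.63, 14.64 and 14.59. On both copies replicate 3 was the lowest array, by less than 0.2. The fibrillin gene fbn3, whose product builds microfibrils, had 13.80, 13.70 and 13.67. The 2 probe sets of fbln1, which encodes a fibulin of elastic fibres and basement membranes, had means of 11.83 ± 0.18 and 11.55 ± 0.18 (SD, n = 3 each).

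Fibronectin (fn1.S), an adhesive protein of connective tissue and plasma, was called by 3 of 4 probe sets. The highest had 14.21, 14.19 and 14.09 and carries the suffix _a_at, for probes shared by several transcripts of a gene. The next had means of 13.78 ± 0.04 and 13.57 ± 0.15 (SD, n = 3 each). Without suffixed probe sets the value of fn1 was 13.78. The fourth had 1.97, 1.98 and 2.16 and was not called, although the annotation gives it the same gene. Thrombospondins are multimeric glycoproteins of the pericellular matrix. Among them thbs1, known for activating latent TGF-beta, had 14.00, 13.92 and 13.86 on its higher .S probe set and 9.50, 8.91 and 9.65 on its other .S probe set, while its .L probe set stayed at 2.13, 1.96 and 2.23. The S copy of thbs1 was thus called and the L copy was not, and both .S probe sets carry the suffix _a_at, which marks probes shared by several transcripts of a gene. For thbs3.L, the higher probe set had 13.14, 13.16 and 13.24 and the other had 7.56, 7.99 and 8.33, and replicate 1 was lowest and replicate 3 highest on each. The gene thbs4, known from tendon and muscle, had 10.37, 11.17 and 10.87 on its .S probe set and 6.05, 5.92 and 6.03 on its .L probe set, so the copies differed in their highest array.

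Tenascin-C and matrilin-2 complete the glycoproteins. Tenascin-C (tnc.L) is a matrix protein of developing and remodelling tissue, and its higher probe set had 9.67, 9.66 and 10.25. Replicate 3 was the high array there, but the other tnc.L probe set had 9.63, 9.07 and 9.31, with replicate 1 the highest. The gene matn2 encodes an adaptor protein of fibrillar and basement membrane matrix. Its .L probe set had 10.98, 11.01 and 11.38 and its .S probe set had 9.90, 10.04 and 10.79. On both copies replicate 3 lay above the others, by 0.38 and 0.83 over their mean.

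The 5 measured proteoglycans and link proteins were all called. Biglycan, decorin and lumican are small leucine-rich proteoglycans that bind collagen fibrils. The probe sets for bgn had 14.29, 14.35 and 14.22 on the .L copy and 13.64, 13.65 and 13.39 on the .S copy, and both copies were highest on replicate 2 and lowest on replicate 3. For dcn they had 13.62, 13.51 and 13.69 on the .L copy and 10.03, 9.58 and 9.97 on the .S copy, both lowest on replicate 2. The lum.L probe set had 11.94, 11.90 and 11.76. Although lum.L and dcn.L are neighbours in the RefSeq annotation, their arrays fell in a different ranking.

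Versican and the link protein hapln3 differed in the side on which replicate 3 lay. Versican (vcan.L), the large hyaluronan-binding proteoglycan of loose mesenchyme, had 5 probe sets, of which 3 were called. They had 11.45, 11.45 and 11.86, then 9.68, 9.33 and 10.25, then 8.02, 7.89 and 8.41 in replicates 1, 2 and 3. The other probe sets had 2.69, 2.98 and 3.71 and 1.91, 2.07 and 2.27, below 4 throughout, and all 5 were highest on replicate 3. The highest vcan.L probe set carries the suffix _s_at, so its value may include other transcripts. Without suffixed probe sets the value of vcan was 9.75. The gene hapln3 encodes a protein that fixes proteoglycans to hyaluronan, and all 4 of its probe sets were called. Its .S probe sets had 13.29, 13.09 and 12.72, then 10.88, 10.56 and 10.18, then 9.29, 8.88 and 7.69, and its .L probe set had 12.79, 12.97 and 12.45. All 4 were lowest on replicate 3, and the last .S probe set had the widest spread of the members, with an SD of 0.83.

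Among the enzymes that modify collagen, 6 of 7 genes were called. Lysyl oxidases cross-link collagen and elastin. The lox.L probe set had 9.89, 9.55 and 10.03, and the probe sets of loxl1, known from elastic fibres, had 12.92, 12.92 and 12.83 on the .S copy and 12.64, 12.60 and 12.57 on the .L copy. The loxl2.L probe set was nearer to the threshold with 6.58, 6.29 and 5.86 (limma adjusted p = 0.000491) and was lowest on replicate 3. The loxl3.S probe set was at the floor with 1.84, 1.85 and 1.84. Lysyl and prolyl hydroxylases act on collagen chains inside the cell. The lysyl hydroxylase probe sets had 13.33, 13.44 and 13.51 for plod3.L, 10.52, 10.36 and 10.20 for plod1.S and 9.01, 9.31 and 9.34 for plod1.L, so the copies of plod1 were ranked in opposite ways by the arrays. The p4ha2.L probe set, for a catalytic subunit of prolyl 4-hydroxylase, had 10.19, 10.07 and 10.21.

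Several probe sets were available for 20 of the 33 genes, which allowed a check within genes. In 3 of the 20 genes (fn1, thbs1 and vcan) some probe sets were called and others were not, which is 15.0% against 32.0% of all genes with several probe sets. Probe sets of both the .L and the .S copy existed for 10 genes, and both copies were called for 9, namely bgn, col18a1, dcn, hapln3, loxl1, matn2, plod1, sparc and thbs4. The loxl1.S copy rests on 1 probe set with the suffix _s_at, so it may include the .L transcript. The exception was thbs1, whose .S copy has no value without the probe sets marked _a_at, or 10.0% of the members against 14.4% of all genes with probe sets of both copies. A further 19 genes had .L probe sets only and 4 had .S probe sets only.

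**Figure D2:**
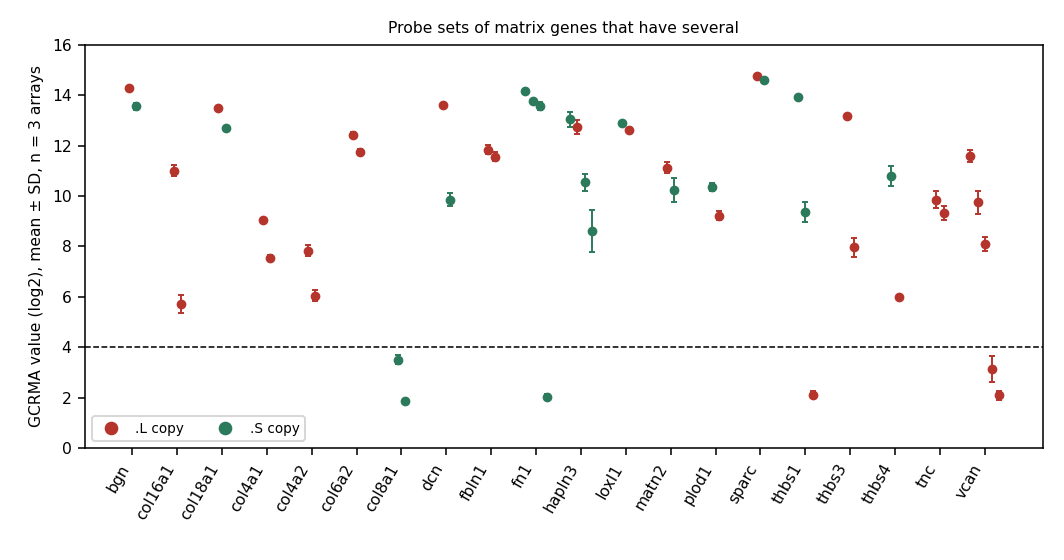
Mean GCRMA value (log2) and SD over 3 arrays (error bars) of each probe set of the 20 matrix genes that have several, coloured by copy. The probe sets of fn1, thbs1 and vcan lie on both sides of the dashed line at 4, and thbs1 is the only gene whose copies do, with the S copy above and the L copy at 2.11.

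The spread between pools depended on the level. For the 54 member probe sets whose mean reached 4, the median SD was 0.17, against 0.16 over all frog probe sets at that level. Between 4 and 8 it was 0.22 for 8 member probe sets against 0.25 for all, and at 12 or higher it was 0.07 for 21 member probe sets against 0.09 for all. Between 8 and 12 the 25 member probe sets, of 18 genes, had a median SD of 0.23 against 0.15 for all. The 5 largest SDs of these 54, those of a hapln3.S, the col21a1.L, the matn2.S, a vcan.L and the thbs4.S probe set, lay in this band. The difference from all probe sets was not tested, since several members share a gene.

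**Figure D3:**
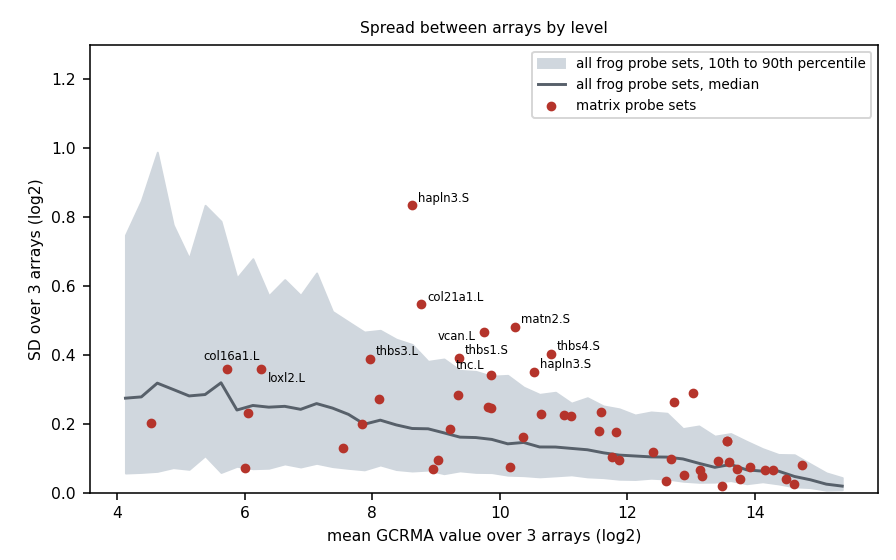
SD over 3 arrays against mean GCRMA value (both log2) for the 54 matrix probe sets whose mean reached 4 (points), with the median (line) and the 10th to 90th percentile (band) of all frog probe sets at the same level. Members with an SD above 0.3 are named. Above the 90th percentile at their level lie 10 of the 54 probe sets, of 7 genes (col21a1, hapln3, matn2, tnc, thbs1, thbs4 and vcan). By definition about 10% of all frog probe sets lie there. The 10 include every hapln3 probe set, so they are not separate genes, and a hapln3.S probe set lies the farthest with 0.83.

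Shifts of whole pools were described over detected probe sets, meaning those whose mean reached 4. The median deviation of an array from the mean of the other arrays, over the 54 detected member probe sets, was 0.07 for replicate 1, -0.004 for replicate 2 and -0.05 for replicate 3, beside 0.002, 0.01 and -0.009 over all detected frog probe sets. Replicate 1 lay above the mean of the other arrays in 37 of the 54 (68.5%), against 50.5% of all detected frog probe sets. A deviation of 0.5 or more was reached by 11 probe sets of 10 genes on some array. Beside the shares of all detected frog probe sets, there were 4 of 54 members higher (7.41%, all 4.75%) and 3 lower (5.56%, all 4.41%) on replicate 1, and 2 higher (3.70%, all 4.85%) and 2 lower (3.70%, all 6.80%) on replicate 2. On replicate 3 they were 4 higher (7.41%, all 6.19%) and 4 lower (7.41%, all 5.13%). Single arrays have no replicate, so these deviations carry no test.

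On replicate 3, 4 of the 54 member probe sets were higher and 4 lower by 0.5 or more. That is 7.41% each, near the 6.19% and 5.13% of all detected frog probe sets. Higher there were matn2.S by 0.83, vcan.L by 0.75, tnc.L by 0.59 and thbs3.L by 0.56, each for 1 probe set. Lower there were hapln3.S by deviations of -1.40 and -0.54, col21a1.L with -0.93 and loxl2.L with -0.57. On replicate 2 thbs4.S was higher by 0.55 and col21a1.L by 0.61, whereas the lower thbs1.S probe set fell by 0.66 and a vcan.L probe set fell by 0.64. On replicate 1 hapln3.S deviated by 1.01 and 0.51, col16a1.L by 0.58 and loxl2.L by 0.50, and thbs4.S, thbs3.L and matn2.S by -0.65, -0.60 and -0.51. Muscle genes were low on replicate 3 with a median of -1.51. The medians over red cell, leukocyte, neuronal, pigment cell and bone genes were positive there, at 1.25, 0.87, 0.84, 0.30 and 0.26. Not every gene of these lists rose by much. Red cell genes ran from 0.04 (alas2) to 4.72 (hba1) on replicate 3. Leukocyte genes ran from -0.06 (cd74) to 1.87 (mpo) and bone genes from 0.09 (col1a2) to 1.71 (bglap). The medians include hba1, mpo and the red cell gene rhag, which were not called. Endothelial genes had medians of 0.30, -0.04 and -0.26 on replicates 1, 2 and 3. The part of these tissues in the matrix values was not tested.

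**Figure D4:**
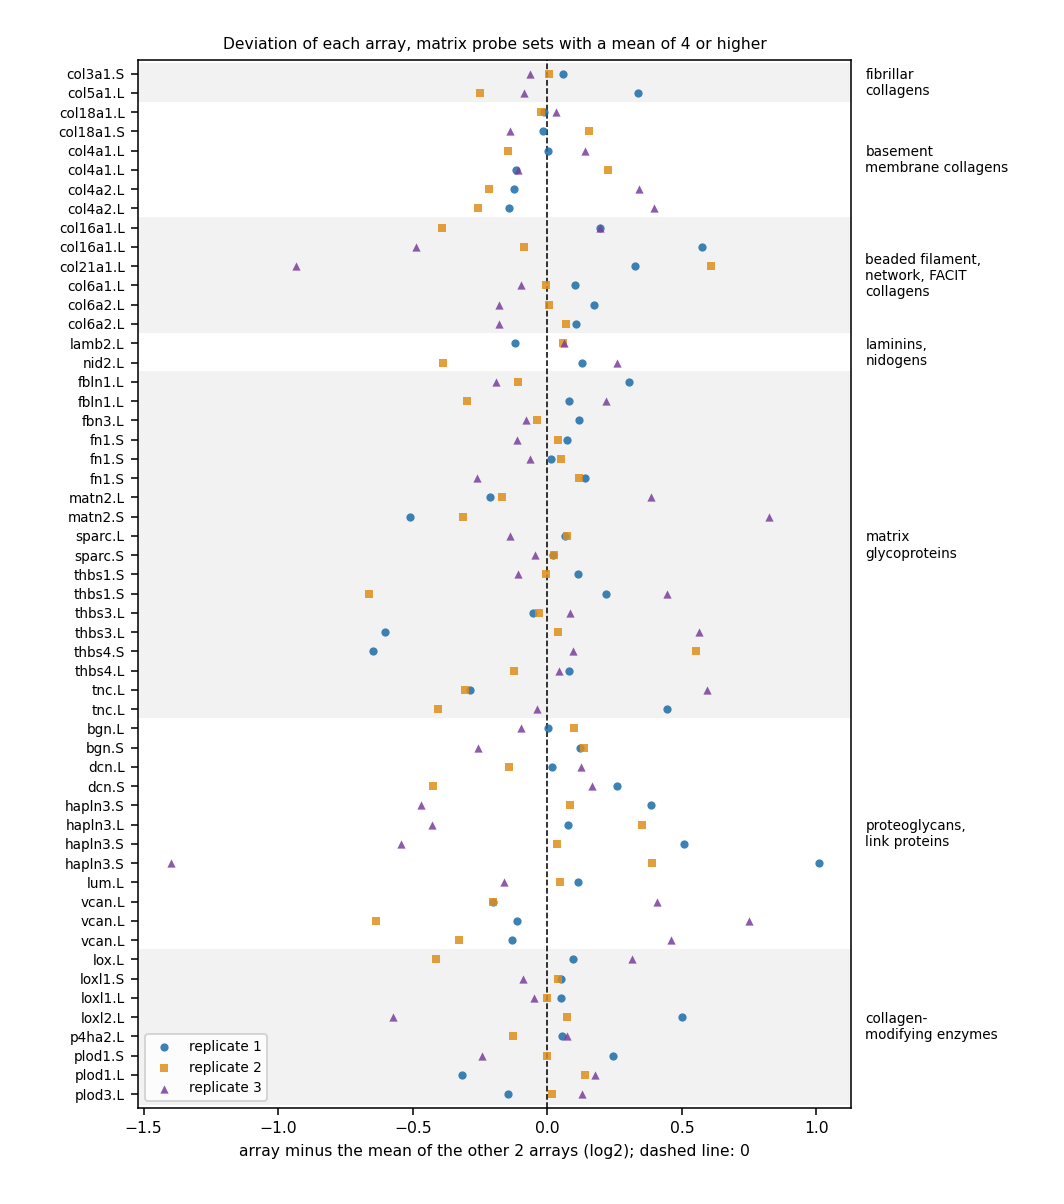
Deviation of each array from the mean of the other 2 arrays (log2, horizontal axis) for the 54 matrix probe sets whose mean reached 4, in 1 row each. Replicate 3 lies left of 0 for every hapln3 probe set and right of 0 for every vcan and matn2 probe set shown.

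Probe sets of the same gene only partly shared the ranking of arrays. Among the 19 member genes with 2 or more detected probe sets, the 2 with the highest means had the same highest array in 9 genes (47.4%), against 53.2% of all genes of this kind. They had the same lowest array in 11 genes (57.9%), against 51.6%. Both were shared in 7 genes (36.8%), against 33.4%, so these shares were near those of all genes. Probe sets of 1 gene can overlap in sequence, so they are not independent measurements.

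**Figure D5:**
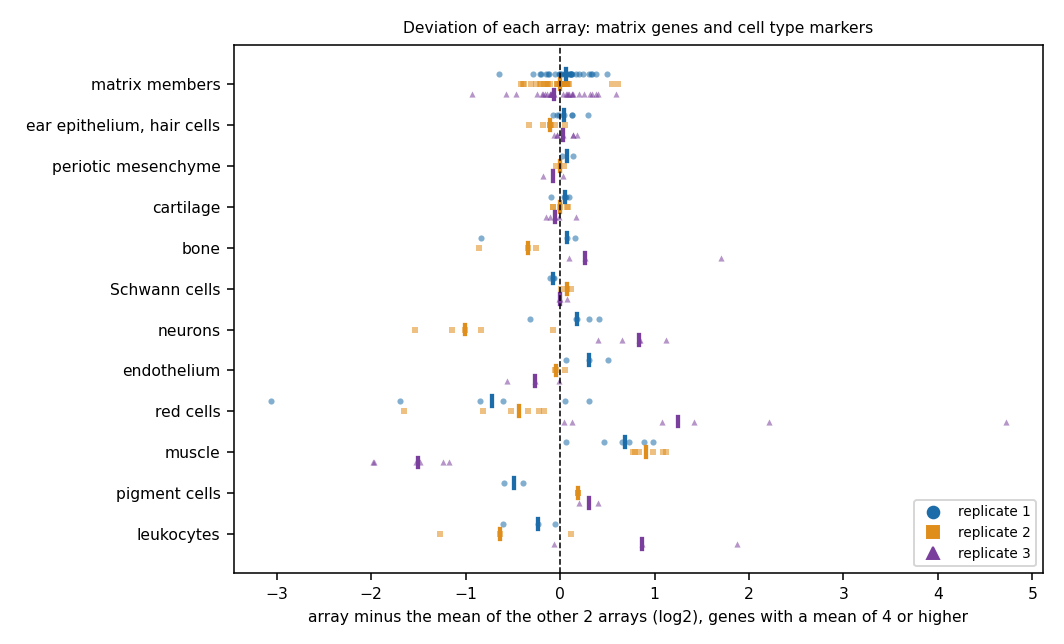
Deviation of each array from the mean of the other 2 arrays (log2) for the detected matrix genes, by their highest probe set, and for detected cell type markers, with 1 point per gene and a bar at the median. By these probe sets the matrix genes stay within 1 of 0 on every array, though a hapln3.S probe set not shown here has -1.40 on replicate 3. The genes listed for ear epithelium, periotic mesenchyme, cartilage, Schwann cells, endothelium and pigment cells also stay within 1 of 0. Muscle genes have a median of -1.51 and red cell genes one of 1.25 on replicate 3.

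Genes that act with these members outside the rule were taken from a list of 93 names, of which 46 had a probe set and 36 (78.3%) were called, against 78.6% of all genes counted in the same way. Of the genes for folding and processing of collagen 10 of 11 were called. They included p4hb, the other subunit of prolyl 4-hydroxylase, at 13.96 ± 0.06, serpinh1, the collagen chaperone HSP47, at 13.21 ± 0.04, and fkbp10, a prolyl isomerase, at 14.19 ± 0.10 (SD, n = 3 each). The exception was sec24d, a coat protein of the secretory pathway, at 2.37 ± 0.22 (SD, n = 3). Among the receptors of matrix 12 of 17 were called. Integrin beta-1 (itgb1) had 13.47 ± 0.06, dystroglycan (dag1) had 13.30 ± 0.18 and the collagen receptor ddr1 had 13.11 ± 0.06 (SD, n = 3 each), while itga2, itga11, itgav, itgb6 and sdc1 were not called, at 2.31, 2.64, 3.17, 2.18 and 2.16. In the list of other matrix proteins 14 of 18 measured genes were called. That list also counts hyaluronan synthases, which are enzymes, and mfap1 (11.44, called), whose place among matrix proteins was not checked. The small leucine-rich proteins epyc and aspn had 14.43 ± 0.05 and 14.06 ± 0.04, and tgfbi, a collagen-binding adhesion protein, had 14.03 ± 0.04 (SD, n = 3 each). The hyaluronan synthases has1 and has3 and the plasma protein vtn were at the floor, with 1.84, 1.85 and 1.90, and prg4, the lubricin gene, had 3.94.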

How the data were processed

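Inner ear RNA of 3 pools was hybridized to version 2.0 of the Affymetrix array for X. laevis. The deposited values are log2 intensities that the authors made by GCRMA, and the software version is not given in the sources used here. GCRMA normalizes the arrays together and compresses dim probe sets to a narrow floor, so an SD at the floor understates the error. Probe sets were named from the platform annotation, in which 15495 of 32475 frog probe sets have 1 symbol, 279 several and 16701 none. The gene IDs of all 61 member probe sets were in RefSeq's annotation (assembly v10.1), which was used for names and neighbours only.

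Detection was tested with limma 3.58.1 in R 4.3.3 (moderated, one-sided, against a mean of 4, with mean-variance trend, Benjamini-Hochberg adjusted over the frog probe sets, adjusted p under 0.05). The step was also run on simulated data. These were drawn independently for each probe set, so shifts shared by genes of a pool were not covered. Other values were computed in Python 3.11.15 with pandas 2.3.3. Where arrays tied, the lower-numbered one was taken. As 3 arrays of 1 group exist, their number limits precision and groups could not be compared. The p-values measure the spread between these pools only. Families, companion lists, markers and members were chosen with earlier results of these data known, and the comparison of probe sets within genes was added after values had been seen. Values of every array were due for members not called, members with copies on both sides of the threshold, the 6 with the highest mean and the 10 with the largest SD, and the highest and lowest of each family, and those of most other members were added. Families and marker lists (ear epithelium, periotic mesenchyme, cartilage, bone, Schwann cells, neurons, endothelium, red cells, muscle, pigment cells, leukocytes) hold standard genes. Alternatives changed the threshold, the trend, the normalization, the probe sets and the arrays used. In the family lists 60 of 93 genes had no member probe set and were not analysed here.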

Additional observations from a re-analysis of the deposited data

How the results depend on the processing

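Detection of the member genes was changed little by the alternatives tried, which were thresholds of 3 and 5, limma without trend, calls without a test, quantile normalization of the arrays again, leaving out probe sets with a suffix for probes shared between transcripts (_a_at, _s_at or _x_at), other choices of the probe set per gene and leaving out each replicate. The count of called genes was 28 to 32 beside 31. With a threshold of 3 col8a1 was called at 3.49, and with a threshold of 5 col5a1 was not, at 4.53. Without the suffixed probe sets thbs1 was left with its .L probe set at 2.11 and nid2 had no value, so 29 genes were called. When every probe set of a gene had to pass, fn1, thbs1 and vcan were not called, with probe sets at 2.04, 2.11 and 2.08. Without replicate 1, 30 genes were called as col5a1 was lost at 4.42, and without replicate 2 or replicate 3, 31. The count of called companion genes was 32 to 35 with a threshold of 5 or without a replicate, beside 36. The count of genes with copies on both sides of the threshold was 1 (thbs1), and it was also 1 with a threshold of 5, with a mean of 4 or higher without a test and without each replicate. Without the suffixed probe sets, an alternative added after the data had been seen, it was 0, since no .S probe set of thbs1 was left. The median deviation of replicate 2 over the members changed sign when arrays were centred on the median of all frog probe sets, with 0.008 there against -0.004. With the same centring it was 0.09 against 0.07 for replicate 1 and -0.08 against -0.05 for replicate 3. The floor limits detection, and a probe set not called does not show that the gene is silent.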

Other observations

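Among the companion genes with a mean of 4 or higher, the 5 with the largest SD between pools are given as values. They were ranked without regard to level. The SD of spock2, 0.55, lay below the 90th percentile of all frog probe sets at its level, 0.79. Integrin beta-3 (itgb3), an integrin of platelets and osteoclasts, had 4.42, 5.26 and 6.24 on the arrays of replicates 1, 2 and 3, with an SD of 0.91 around 5.31 (n = 3; limma adjusted p = 0.0281). The hyaluronan synthase has2 had 5.69, 4.23 and 5.16 (limma adjusted p = 0.0322), so it was lowest on replicate 2 and its call rests on values close to the threshold. The elastin microfibril protein emilin2 had 7.41, 8.18 and 8.64, and the proteoglycan spock2 had 5.11, 5.85 and 6.19. The matricellular gene ccn1 had 11.75, 10.86 and 11.33. Replicate 3 was the highest array for itgb3, emilin2 and spock2, and replicate 1 for has2 and ccn1.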
